A study of Mus musculus with 6 samples.

Results

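The mesonephros, the transient kidney of the embryo, lies against the fetal ovary and is drained by the mesonephric duct. Its tubules and ducts are built by *Pax2* and *Pax8*, paired-box transcription factors, with *Lhx1* and *Gata3* as further regulators and *Wnt9b* as a signal that the duct epithelium sends to the cells around it. The epithelium itself is held together by cadherins, here *Cdh1* (E-cadherin) and *Cdh16* (kidney-specific cadherin), and filled by the paired keratins *Krt8* and *Krt18*. Apart from these tissues, *Krt8* and *Krt18* are made by simple epithelia in general, the ovarian surface epithelium among them, and *Cdh1* is also made by germ cells. These 9 genes were chosen by symbol, as markers by which tissue taken along at dissection can be judged, and all 9 were found among the 54532 genes of the deposited table.

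RNA of whole mouse ovaries was sequenced at 16.5 days post-coitus (dpc), in 3 control (Ctrl) libraries and 3 conditional knockout (cKO) libraries, all of strain C57BL/6. The sample labels give the Ctrl genotype as wild type. The cKO mice carried *Srsf1* Fl/Fl alleles and *Stra8-GFPCre*, a Cre driver active in germ cells around the start of meiosis, so the somatic cells of the ovary and of any mesonephros attached to it were not its target. *Srsf1* encodes a splicing factor, and loss of it from oocytes was the question of the study. Values are FPKM, the fragments on a gene scaled by its length and by the size of the library, so levels of different genes can be compared within a library.

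Between 15548757 and 16756795 reads fell on genes in Ctrl libraries and between 14212164 and 16784241 in cKO libraries. *Srsf1*, the targeted gene, was at 80.2, 70.1 and 63.1 FPKM in Ctrl 1, 2 and 3 and at 32.4, 37.0 and 36.4 FPKM in cKO 1, 2 and 3. Its groups did not overlap, and its log2 fold change was -0.99 (SE 0.13, limma unadjusted p = 0.000158, adjusted p = 0.497). Marker levels of other cells differed between libraries. The summed level of 10 germ-cell genes (*Ddx4*, *Dazl*, *Sycp3* and the like) ran from 178 to 676 FPKM over the Ctrl libraries and from 303 to 864 FPKM over the cKO libraries, and that of 6 red blood cell genes ran from 1691 to 22722 FPKM over all 6. As RNA was taken from whole organs, fewer cells of a type and less RNA per cell cannot be told apart in any value below.

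The 9 genes fell into 3 ranges of level. *Krt8* and *Krt18* averaged 56.3 and 49.3 FPKM over the 6 libraries, *Pax8*, *Gata3*, *Cdh1* and *Cdh16* averaged 2.20, 1.06, 0.921 and 0.799 FPKM, and *Pax2*, *Lhx1* and *Wnt9b* averaged 0.150, 0.105 and 0.0647 FPKM. *Krt8* was above *Krt18* in every library, while *Gata3*, *Cdh1* and *Cdh16* changed places from library to library, as did *Pax2*, *Lhx1* and *Wnt9b*. Together the 2 keratins made up 92.8% to 96.8% of the summed level of the 9 genes. The regulators that define the tubules and the duct were therefore a small part of it, and *Pax2*, *Lhx1* and *Wnt9b* rested on 8 to 20, 1 to 16 and 0 to 18 reads per library.

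**Figure D1:**
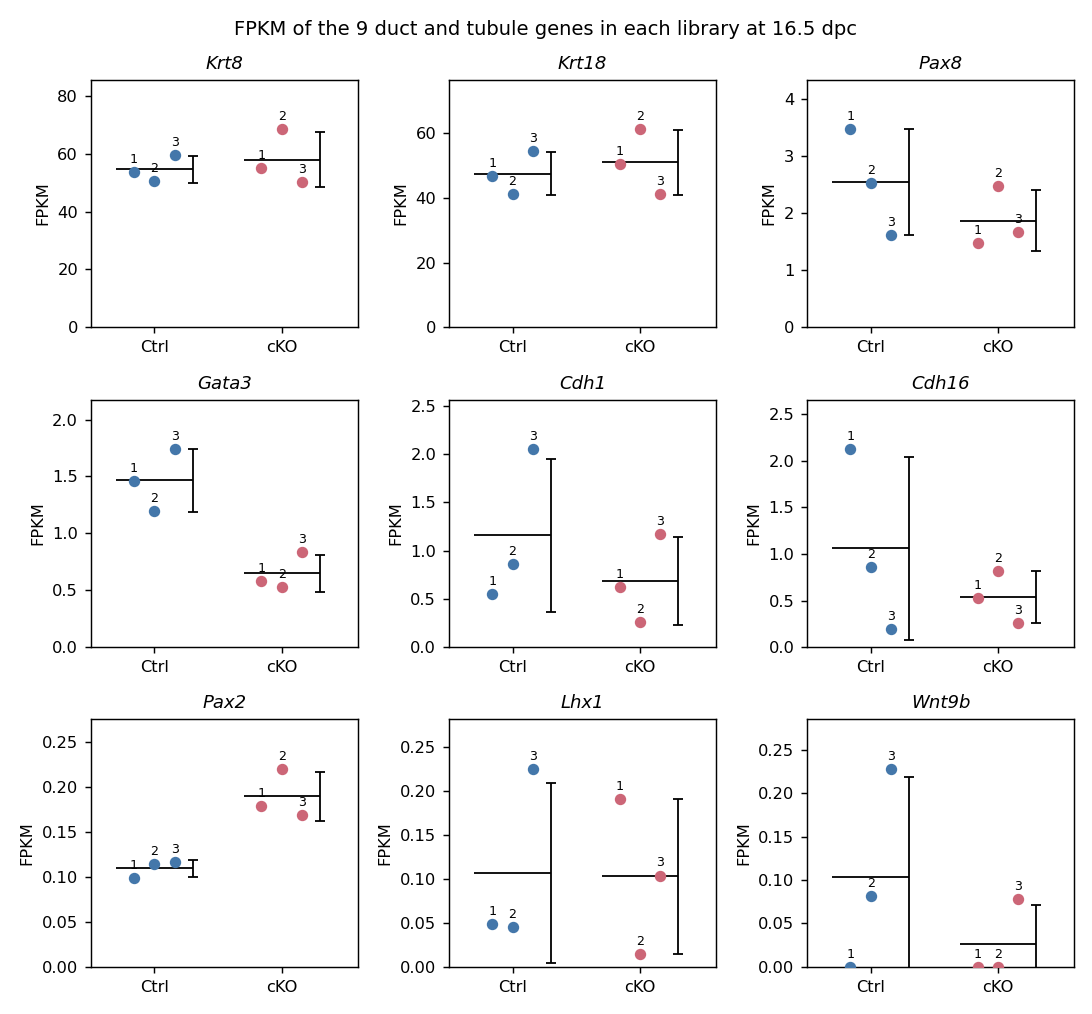
FPKM (y axis, each panel on its own scale from 0) of the 9 genes in the 3 Ctrl (blue) and 3 cKO (red) libraries, with the library number above each point. Horizontal lines are group means and bars are 1 SD, cut at 0 for *Wnt9b*. The groups are apart for *Gata3*, lower in cKO, and for *Pax2*, higher in cKO, and overlap for the other 7 genes.

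The cKO and Ctrl ovaries were compared by two-sided limma tests on log2(FPKM + 1), over the 17180 genes whose mean in the 6 libraries was at least 0.5 FPKM. The added 1 shrinks fold changes of weakly expressed genes. Of the 9 genes, 6 passed this minimum and *Pax2*, *Lhx1* and *Wnt9b* did not. *Gata3* fell in cKO ovaries and was the only 1 of the 6 genes past an unadjusted p of 0.05, beside 4.43% of all genes tested past this limit in either direction and 1.75% past it with a lower level in cKO. None of the 6 passed an adjusted p of 0.05 (Benjamini-Hochberg), and the share of all genes tested that passed was 0%. Their log2 fold changes had a median of -0.31, beside -0.01 for all genes tested, with 4 of the 6 below 0. Counted over all 9 genes, the groups did not overlap for *Gata3* and *Pax2*. Such genes made up 8.68% of all genes tested and 8.84% of the genes with a mean of 0.05 to 0.5 FPKM, the range in which *Pax2* lies.

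**Figure D2:**
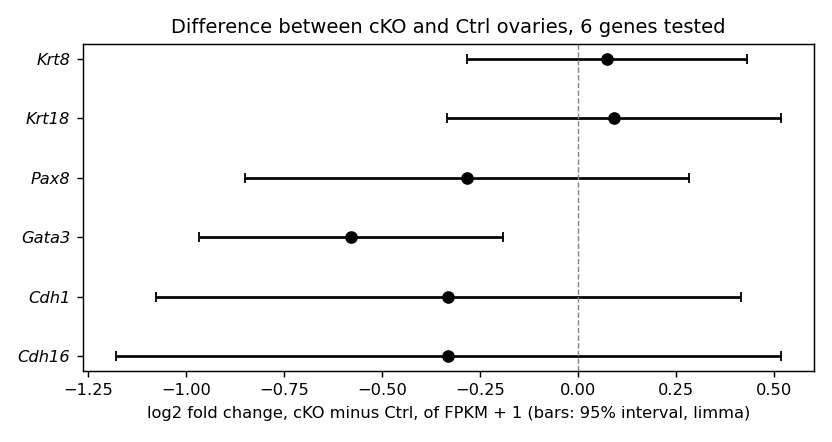
Log2 fold change, cKO minus Ctrl, of FPKM + 1 (x axis) for the 6 genes tested, with 95% intervals from limma as bars. The interval of *Gata3*, -0.97 to -0.19, lies below 0, and those of the other 5 genes include 0.

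The keratins had the smallest spans of the 9 genes, with the highest library 1.37 times the lowest for *Krt8* and 1.48 times for *Krt18*. *Krt8* (chr15:101996698-102004482, minus strand, mm10) was at 53.8, 50.5 and 59.6 FPKM in Ctrl 1, 2 and 3 and at 55.2, 68.4 and 50.1 FPKM in cKO 1, 2 and 3. The highest and the lowest value were both in cKO ovaries, so the Ctrl range lay inside the cKO range. The means were 54.6 ± 4.63 (SD, n = 3) and 57.9 ± 9.47 FPKM (SD, n = 3), and the log2 fold change was 0.07 with a 95% interval of -0.28 to 0.43 (limma adjusted p = 0.986). *Krt18* (chr15:102028180-102032027, plus strand) was at 46.8, 41.3 and 54.5 FPKM in Ctrl and at 50.5, 61.3 and 41.4 FPKM in cKO. Its means were 47.6 ± 6.60 and 51.0 ± 9.95 FPKM (SD, n = 3 each), with a log2 fold change of 0.09 and an interval of -0.34 to 0.52 (limma adjusted p = 0.986). With 1393 to 2249 reads on *Krt8* per library, counting error was small beside the spread between libraries.

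The products of *Krt8* and *Krt18* join as obligate partners in 1 filament, and their levels moved together from library to library. *Krt18* divided by *Krt8* was 0.870, 0.819 and 0.914 in Ctrl 1, 2 and 3 against 0.915, 0.895 and 0.826 in cKO 1, 2 and 3, a narrow range in which the groups overlapped. On the log2 scale this ratio differed by 0.02 between cKO and Ctrl (exact permutation test, two-sided, p = 0.7, adjusted over 6 ratios p = 0.84). Centred over the 6 libraries, their log2(FPKM + 1) values differed by a root mean square of 0.063, the smallest difference among all pairs of the 9 genes. The 2 genes are neighbours on opposite strands, 23697 bases apart. Because they run side by side in level, bases ahead of each annotated gene are shown here (RefSeq, GRCm38.p6, 5′ to 3′ on the strand of the gene). They begin 250 bases before the RefSeq start and end where the annotated gene begins. Both stop short of the RefSeq start, which lies at 102004342 for *Krt8* and at 102028216 for *Krt18*. Capitals mark CG dinucleotides, where DNA can be methylated.
Krt8, chr15:102004483-102004592, minus strand: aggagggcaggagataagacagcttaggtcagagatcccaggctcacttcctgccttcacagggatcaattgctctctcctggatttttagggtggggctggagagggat
Krt18, chr15:102027966-102028179, plus strand: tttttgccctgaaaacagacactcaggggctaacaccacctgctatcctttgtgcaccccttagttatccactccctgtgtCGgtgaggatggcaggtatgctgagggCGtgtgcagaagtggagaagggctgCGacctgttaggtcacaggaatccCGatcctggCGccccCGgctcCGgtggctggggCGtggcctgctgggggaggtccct

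The 110 bases shown for *Krt8*, which stop short of its RefSeq start, hold no CG. The same holds for 22.5% of the 32851 promoters of the table over the same window. The 214 bases ahead of *Krt18* hold 8, and 37.6% of promoters have as many or more in that window. The letters TATAAA and GGGCGG, searched on both strands, were in neither stretch, and TATAAA was in 5.63% and 9.71% of all promoters over these windows. GGGCGG was in 11.6% and 27.6%. The bases between each stretch and its RefSeq start were not searched, so absence here says nothing about them. These matches describe the letters only.

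*Pax8* was the best measured of the tubule regulators. It lies on chr2:24420560-24475599 (minus strand) and was at 3.47, 2.53 and 1.61 FPKM in Ctrl 1, 2 and 3, from 315, 248 and 171 reads. In cKO 1, 2 and 3 it was at 1.47, 2.47 and 1.66 FPKM, from 138, 251 and 143 reads. Ctrl 1 was the highest library and cKO 1 the lowest, but Ctrl 3 lay below cKO 2 and cKO 3. The means of 2.54 ± 0.925 and 1.87 ± 0.529 FPKM (SD, n = 3 each) gave a log2 fold change of -0.28 with a 95% interval of -0.85 to 0.28 (limma adjusted p = 0.978). A change of that size in either direction could not be told from the spread between libraries, and leaving out 1 library moved the log2 fold change of *Pax8* to -0.10 (without Ctrl 1), -0.18 (without cKO 1), -0.43 (without cKO 2) or -0.48 (without Ctrl 3). *Gm13415*, a noncoding transcript on the opposite strand, shares 367 exon bases with *Pax8*, and it had 0 to 7 reads per library.

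*Gata3*, which acts downstream of *Pax2* and *Pax8* in the nephric duct and is also a regulator of T cells and of sympathoadrenal cells, was lower in every cKO library than in every Ctrl library. It lies on chr2:9857078-9890034 (minus strand) and was at 1.46, 1.20 and 1.74 FPKM in Ctrl 1, 2 and 3, from 87, 77 and 121 reads. In cKO 1, 2 and 3 it was at 0.585, 0.524 and 0.832 FPKM, from 36, 35 and 47 reads. The lowest Ctrl value was thus above the highest cKO value, with a gap between the groups that is smaller than the range within Ctrl. The means were 1.47 ± 0.273 and 0.647 ± 0.163 FPKM (SD, n = 3 each), so cKO ovaries held 44.2% of the Ctrl mean. The log2 fold change was -0.58 (SE 0.16, 95% interval -0.97 to -0.19, limma unadjusted p = 0.0096, adjusted p = 0.978). The exact permutation test gave p = 0.1, the smallest that 3 libraries against 3 can give. The difference was past the unadjusted limit in each of 16 alternative fits, with a limma unadjusted p between 0.00416 and 0.0364, and not past the adjusted limit in any of them. Genes lower in every cKO library made up 4.1% of all genes tested.

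The sequence ahead of the main *Gata3* start is shown because *Gata3* was the 1 gene of the 9 past the unadjusted limit (RefSeq, GRCm38.p6, 5′ to 3′, capitals mark CG). It lies in an intron of longer annotated forms of the gene.
Gata3, chr2:9878601-9878850, minus strand: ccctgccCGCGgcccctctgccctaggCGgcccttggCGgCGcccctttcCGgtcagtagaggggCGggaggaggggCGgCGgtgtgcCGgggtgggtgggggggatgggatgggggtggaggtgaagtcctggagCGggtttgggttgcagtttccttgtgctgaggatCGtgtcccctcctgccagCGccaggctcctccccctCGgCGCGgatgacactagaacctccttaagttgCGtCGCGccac

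These 250 bases hold 19 CG dinucleotides, where the median promoter holds 6 over the same window, and 19.7% of promoters have as many or more. GGGCGG, the letters of a GC box, occurred 2 times, as it did at least 1 time in 32.7% of promoters, and TATAAA was absent here and present in 12.4% of them. *Gm13256*, an antisense transcript that starts inside the gene and runs across its main start, shares 155 exon bases with *Gata3* and had 3 to 7 reads per Ctrl library and 1 to 3 per cKO library. *9230102O04Rik*, on the same strand, shares 77 exon bases and had 0 to 5 reads per library. No source states whether counting used the strand, which bears on *Gm13256* only, or how reads on shared bases were assigned. Whether the *Gata3* counts gained or lost a few reads on these bases is therefore not known.

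Other cells that use *Gata3* were read through their own markers. *Chga*, which encodes a granule protein of neuroendocrine cells, was at 0.702, 1.43 and 0.935 FPKM in Ctrl and at 0.469, 0.541 and 0.639 FPKM in cKO, lower in every cKO library but not past the limit (limma unadjusted p = 0.0838, adjusted p = 0.978). *Th* and *Dbh*, which encode enzymes of catecholamine synthesis, rested on 1 to 10 and 0 to 3 reads per library, with the opposite order of group totals (11 reads in Ctrl against 17 in cKO for *Th*, 0 against 4 for *Dbh*). *Ptprc*, the pan-leukocyte gene, was at 0.155 to 0.401 FPKM. Of 4 immune genes, 3 were tested, with a median log2 fold change of -0.29 and none above 0, and none passed the limit. Of the 4, 1 was lower in every cKO library. Such genes made up 4.1% of all genes tested and 4.61% of those with a mean of 0.05 to 0.5 FPKM. The part of these cells in the *Gata3* difference was not tested.

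*Pax2* showed the opposite order at a level near the limit of detection. It lies on chr19:44756045-44837871 (plus strand) and was at 0.0986, 0.114 and 0.116 FPKM in Ctrl 1, 2 and 3 and at 0.179, 0.220 and 0.169 FPKM in cKO 1, 2 and 3. These values stood for 8, 10 and 11 reads in Ctrl and 15, 20 and 13 reads in cKO, so every cKO library was above every Ctrl library by as little as 2 reads. Summed over a group and scaled by library size, the ratio of cKO to Ctrl was 1.73, with a 95% interval of 1.07 to 2.85 that covers counting error only. The exact permutation test gave p = 0.1. With no minimum on the level, limma gave a log2 fold change of 0.10 (unadjusted p = 0.0727), so *Pax2* did not pass the limit. Of the genes with a mean of 0.05 to 0.5 FPKM, 4.23% were higher in every cKO library.

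*Pax2* and *Gata3* are read as partners in 1 pathway, so their ratio within each library was compared. As *Pax2* is far below the added 1, the ratio of *Gata3* + 1 over *Pax2* + 1 follows *Gata3* for the most part and depends on the pseudocount. On the log2 scale it was 1.16, 0.98 and 1.30 in Ctrl against 0.43, 0.32 and 0.65 in cKO, with a difference of -0.68 between cKO and Ctrl and no overlap, and the difference was -1.54 with a pseudocount of 0.1. The difference was -0.38 for *Pax8* over *Pax2* (-0.85 with a pseudocount of 0.1) and -0.30 for *Gata3* over *Pax8* (-0.02 without Ctrl 3, -0.10 without cKO 2 and -0.48 without Ctrl 1), with overlapping groups in both. In exact permutation tests, two-sided, these gave p = 0.1, p = 0.2 and p = 0.6, and adjusted over 6 ratios p = 0.4, p = 0.4 and p = 0.84, so none passed.

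*Lhx1*, a LIM homeobox regulator of the nephric duct, lies on chr11:84518284-84525535 (minus strand) and was read 3, 3 and 16 times in Ctrl 1, 2 and 3 and 12, 1 and 6 times in cKO 1, 2 and 3. These reads stood for 0.0491, 0.0455 and 0.225 FPKM in Ctrl and 0.191, 0.0146 and 0.104 FPKM in cKO. The groups overlapped over nearly the whole range, and the ratio of cKO to Ctrl reads was 0.905 (95% counting interval 0.463 to 1.75).

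*Wnt9b*, the signal of the duct to its neighbours, lies on chr11:103727364-103749821 (minus strand) and was at 0, 0.0820 and 0.228 FPKM in Ctrl 1, 2 and 3 and at 0, 0 and 0.0779 FPKM in cKO 1, 2 and 3. The reads were 0, 6 and 18 in Ctrl against 0, 0 and 5 in cKO, and a count of 0 allows up to 3 reads. It was highest in Ctrl 3 but not detected in Ctrl 1, so the groups overlapped. Summed reads gave a ratio of 0.218 (95% counting interval 0.0650 to 0.584), an interval that leaves out the spread between libraries, and the exact permutation test gave p = 0.4. A voom fit of the reads with no minimum, added after these values had been seen, gave a log2 fold change of -1.78 for *Wnt9b* and 0.76 for *Pax2* (limma unadjusted p of 0.202 and 0.154).

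Of the 6 genes tested, the cadherins had the largest SD of log2(FPKM + 1) within groups. *Cdh16*, the cadherin of kidney tubules and a few other epithelia, lies on chr8:104601911-104624396 (minus strand) and was at 2.13, 0.863 and 0.196 FPKM in Ctrl 1, 2 and 3, from 121, 53 and 13 reads. In cKO 1, 2 and 3 it was at 0.529, 0.817 and 0.260 FPKM, from 31, 52 and 14 reads. The highest and the lowest library were both Ctrl, 10.8 times apart, and all cKO values lay between them. The means of 1.06 ± 0.981 and 0.535 ± 0.279 FPKM (SD, n = 3 each) gave a log2 fold change of -0.33 with a 95% interval of -1.18 to 0.52 (limma adjusted p = 0.979). Its direction rested on 1 library, as the log2 fold change was 0.02 without Ctrl 1, beside -0.20 without cKO 3 and -0.67 without Ctrl 3.

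*Cdh1* lies on chr8:106603351-106670246 (plus strand) and was at 0.554, 0.864 and 2.05 FPKM in Ctrl 1, 2 and 3 and at 0.622, 0.261 and 1.17 FPKM in cKO 1, 2 and 3. Ctrl 3 and cKO 3 were the highest libraries, and cKO 2 was the lowest. The means were 1.16 ± 0.791 and 0.684 ± 0.458 FPKM (SD, n = 3 each), with a log2 fold change of -0.33 and a 95% interval of -1.08 to 0.41 (limma adjusted p = 0.978). It was -0.05 without Ctrl 3, -0.14 without cKO 2, and -0.54 and -0.53 without Ctrl 1 and cKO 3. The ratio of *Cdh1* over *Cdh16* did not separate the groups (exact permutation test, p = 1). The ratio of *Wnt9b* over *Pax2*, the last of the 6 ratios, differed by -0.20 between cKO and Ctrl (-1.04 with a pseudocount of 0.1), with overlapping groups (exact permutation test, p = 0.2).

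Over libraries of the same group, the SD of log2(FPKM + 1) was 0.53 for *Cdh16*, 0.45 for *Cdh1* and 0.33 for *Pax8*, which lay above 89.4%, 85.5% and 73.3% of all genes tested. For *Krt18*, *Krt8* and *Gata3* it was 0.24, 0.18 and 0.15, near or below the median of 0.22. This scale compresses low levels. On it, the cadherins and *Pax8* varied more between libraries of a group than *Gata3* did.

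*Pax8* and *Cdh16* shared an order of libraries. In both, Ctrl 1, Ctrl 2 and cKO 2 stood highest, in this order. The level of the 10 germ-cell genes, as the mean of centred log2(FPKM + 1), was -1.11, -0.42 and 0.47 in Ctrl 1, 2 and 3 against 0.63, -0.47 and 0.91 in cKO 1, 2 and 3. The 3 libraries highest in *Pax8* and *Cdh16* were thus the 3 lowest in germ-cell genes, across both genotypes. They were also the 3 highest in pregranulosa genes (0.05 in Ctrl 1, 0.02 in Ctrl 2 and 0.23 in cKO 2, with cKO 3 close behind at 0.001). The same held for the 3 adrenal genes tested (0.04, 0.13 and 0.09). In no other list read were these 3 libraries the highest. Among the further duct and tubule regulators, Ctrl 2 at -0.021 lay below cKO 3 at 0.005. In the kidney genes, Ctrl 3 at 0.062 lay above Ctrl 1 at 0.057 and cKO 2 at 0.023. *Cdh1* stood highest in Ctrl 3 and cKO 3, where germ-cell genes were high, but cKO 1, also high in germ-cell genes, had less *Cdh1* than Ctrl 2, where they were low. *Gata3*, *Krt8* and *Krt18* followed neither order. With 6 libraries these are descriptions, and the part of germ, pregranulosa or adrenal cells in the levels of *Pax8*, *Cdh16* and *Cdh1* was not tested.

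**Figure D3:**
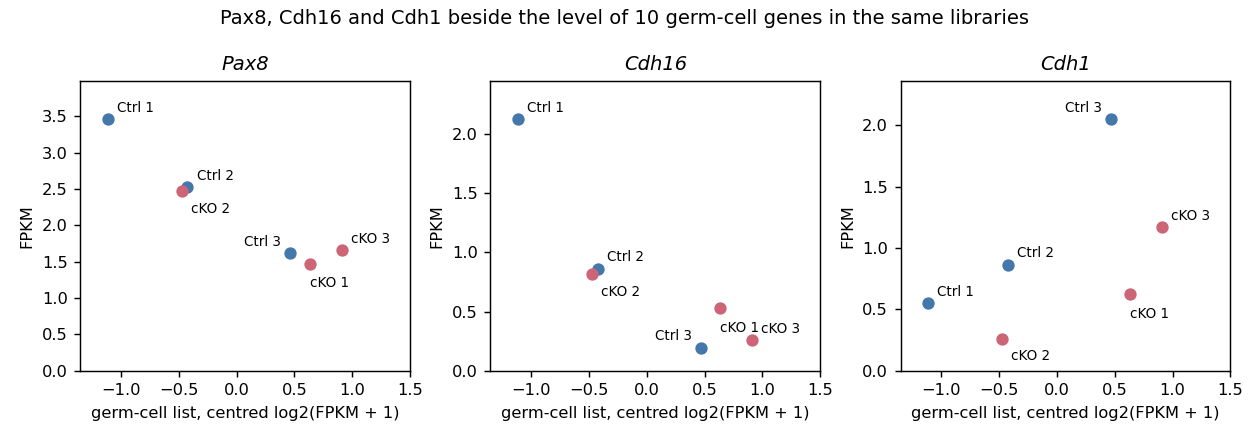
FPKM of *Pax8*, *Cdh16* and *Cdh1* (y axis) in each Ctrl (blue) and cKO (red) library against the mean centred log2(FPKM + 1) of 10 germ-cell genes (x axis). Ctrl 1, with the lowest germ-cell level at -1.11, has the highest *Pax8* and *Cdh16*, and Ctrl 3 has the highest *Cdh1*.

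Genes whose profile over the 6 libraries was nearest to that of a member were found by the root mean square difference of centred log2(FPKM + 1). *Dok4*, at 5.51 to 11.0 FPKM, was nearest to *Pax8* with a difference of 0.020, ahead of *Fcgr3* and *Slc48a1*. *Acsl5* (0.093), *Lockd* and *Bola3* were nearest to *Cdh16*, and *Efemp1* (0.063), *Rpl31-ps9* and *1300002E11Rik* were nearest to *Gata3*. *Efemp1*, an extracellular matrix gene, was at 3.47, 3.12 and 3.91 FPKM in Ctrl and at 2.22, 1.81 and 2.28 FPKM in cKO. It has the same split between groups as *Gata3* because it was picked for its nearness to *Gata3*, so the split adds no evidence. The profiles of *Pax2*, *Lhx1* and *Wnt9b* are nearly flat on this scale, and *Vps36*, *Rad23b* and *Fbxl16*, then *Rint1*, *Taf1d* and *Dnajc1*, then *Kalrn*, *Catsperg1* and *Tmem181b-ps*, were nearest to them. Between members, *Pax8* and *Cdh16* differed by 0.214, and *Cdh16* and *Cdh1* by 0.782, the largest difference among the pairs.

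Beyond the 9 genes, 34 further regulators of ducts and tubules were read, of which 20 passed the minimum level and none passed the unadjusted limit, with a median log2 fold change of 0.04. The most abundant were *Wnt4* at 35.8 to 71.4 FPKM and *Emx2* at 34.9 to 54.3 FPKM, both also genes of the ovary itself, then *Fgfr2*, *Nr2f2*, *Npnt* and *Osr1*. *Nr2f2*, a nuclear receptor of mesenchyme and of the mesonephros, was higher in every cKO library, at 12.8, 12.5 and 14.0 FPKM in Ctrl and 15.3, 15.0 and 15.0 FPKM in cKO, and did not pass the limit (limma unadjusted p = 0.103). Of the other 14 regulators, 11 had a mean of 0.05 to 0.5 FPKM, and 3 of these were lower in every cKO library, beside 4.61% of all genes in that range. They are named here after their values were seen. *Hoxa13*, a homeobox gene of the hindmost urogenital tract, had 8, 20 and 37 reads in Ctrl and 2, 4 and 2 reads in cKO, *Gfra1*, a co-receptor for GDNF, had 47, 17 and 33 against 15, 7 and 10, and *Wnt7a*, a signal of Müllerian duct epithelium, had 7, 7 and 5 against 3, 0 and 1. The ratio of summed reads for *Hoxa13* was 0.129 (95% counting interval 0.0534 to 0.269). None of the 3 was tested.

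Of 30 epithelial genes, 17 were tested and none passed, with a median of -0.07. *Krt19*, which the list of surface epithelium also holds, was at 18.8 to 45.6 FPKM, *Epcam*, the epithelial adhesion gene, at 9.25 to 16.2 FPKM, and *Spint2*, *Krt7*, *Ap1m2* and *Crb3* below them or between them. Of 15 genes of kidney tubules and podocytes, 3 were tested, with a median of -0.08. *Podxl* was at 96.7 to 130.2 FPKM, and it is also a gene of vessels and mesothelium, so it does not mark kidney here. *Lrp2*, *Cubn*, *Aqp2* and *Slc12a1*, genes of reabsorption in kidney tubules, were all under 0.5 FPKM in every library. *Aqp2* was lower in every cKO library at 0 to 6 reads. Such genes made up 4.61% of all genes with a mean of 0.05 to 0.5 FPKM, the range in which *Aqp2* lies. *Slc12a3*, a salt transporter of the distal tubule with a mean under 0.05 FPKM, was higher in every cKO library, with 2, 2 and 4 reads in Ctrl and 16, 5 and 13 reads in cKO, and is named after its values were seen. Neither was tested.

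The other cells of the ovary were read through their own lists. All 14 pregranulosa genes were tested and none passed (median 0.01), with *Foxl2*, the regulator of granulosa fate, at 47.5 to 74.6 FPKM and *Amhr2*, *Kitl*, *Gata4*, *Wt1* and *Irx3* also abundant. All 10 genes of the ovarian surface epithelium were tested and none passed (median 0.12), with *Upk3b*, a mesothelial uroplakin, at 34.4 to 53.5 FPKM, followed by *Krt19*, *Lgr5*, *Bnc1*, *Upk1b* and *Lrrn4*. Mean levels ran from 6.18 to 141 FPKM over the pregranulosa genes and from 1.09 to 44.6 FPKM over the surface genes. *Krt8* and *Krt18*, at 56.3 and 49.3 FPKM, lay inside the first range and above the second. *Pax8*, at 2.20 FPKM, lay below the first and inside the second. How much of the keratin came from ducts was not tested.

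In the germ-cell list, *Dazl* and *Dppa3* rose among 10 genes (limma unadjusted p of 0.0345 and 0.0312, adjusted p = 0.978 for both), with a median of 0.51. None passed among 6 stromal genes (median -0.13), 4 endothelial genes (-0.01), 3 tested of 4 immune genes (-0.29) and 3 tested of 8 adrenal genes (-0.03). Among 6 red blood cell genes *Hbb-y*, an embryonic globin, rose by 2.10 on the log2 scale (limma unadjusted p = 0.00589) while the median was -0.73. The part of these cells in the values of the 9 genes was not tested.

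**Figure D4:**
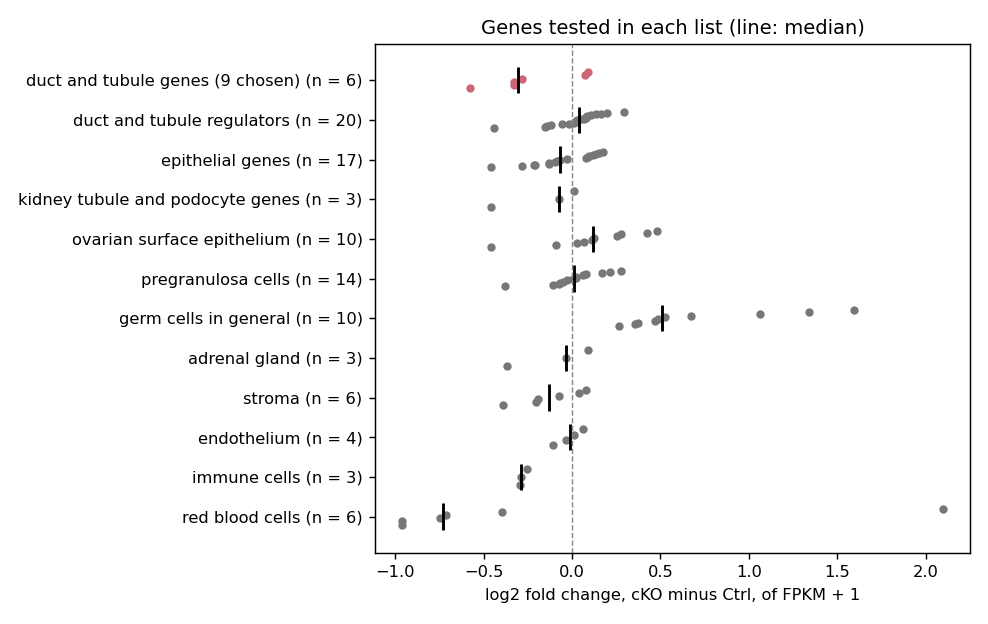
Log2 fold change, cKO minus Ctrl, of FPKM + 1 (x axis) for each tested gene (points) of the 9 duct and tubule genes (red) and of 11 further lists (grey), with the number tested in brackets and the list median as a vertical line. The median is -0.31 for the 6 tested of the 9 genes, 0.04 for the further regulators and 0.51 for germ-cell genes.

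Leaving out the keratins, the summed level of the other 7 genes was 7.75, 5.69 and 6.17 FPKM in Ctrl 1, 2 and 3 and 3.58, 4.30 and 4.28 FPKM in cKO 1, 2 and 3. The sum of all 9 was 108, 97.5 and 120.3 FPKM in Ctrl and 109, 134 and 95.7 FPKM in cKO. The first sum was lower in every cKO library and the second overlapped. Of the 7 genes, only *Gata3* was itself lower in every cKO library, as were 4.1% of all genes tested. *Pax2* was higher in every cKO library, and the groups overlapped for the others. The Ctrl sums also held single high values, such as *Cdh16* at 2.13 FPKM in Ctrl 1 and *Cdh1* at 2.05 FPKM in Ctrl 3. As the keratins were set aside after their values had been seen, no test was made of the first sum.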

How the data were processed

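Reads were mapped by the authors to mouse build mm10 with HISAT2 2.0.5 and assigned to genes with featureCounts. The FPKM values per gene were deposited by the authors, together with gene coordinates and lengths. Which annotation and strand setting they used is not given here. In the labels, the extraction text names retina, but the tissue field says ovary, as does the paper. Sample labels gave the groups and numbers.

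Multiplied by gene length, 100% of FPKM values were whole numbers of reads to within 0.05, which gave the reads quoted. The library sizes that this scaling implies were used for read ratios. They were 14997043, 16190688 and 17469501 in Ctrl 1, 2 and 3, where 15548757, 15726253 and 16756795 reads fell on genes. In each cKO library the implied size and the reads on genes were closer. The source of this difference is not known. Intervals of read ratios are 95% exact binomial and cover counting error only. FPKM was tested as log2(FPKM + 1) with limma 3.58.1 (R 4.3.3), with an intensity trend and a minimum mean of 0.5 FPKM. The fit was tested on simulated data. Nothing in the labels says that libraries came from separate litters, so p-values measure the spread between these libraries. The limit of p below 0.05, unadjusted, is that of the paper. Single genes and ratios were compared by exact permutation in Python 3.11.15 (scipy 1.17.1). Coordinates of the table were the same in GENCODE M21 for all 9 genes. Promoters are from RefSeq (GRCm38.p6), with entries for 7 of the 9.

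Members and lists were chosen with earlier results of these data known. Named genes are *Srsf1*, the members, list genes past the limit, up to 6 others per list by mean FPKM, and the 3 genes nearest in profile to each of 6 members, with exceptions marked. The lists cover duct and tubule regulators, epithelium, kidney, surface epithelium, pregranulosa, germ, adrenal, stromal, endothelial, immune and red blood cells. *Krt19* and *Wnt4* are each in a pair of lists. Values of some single list genes under this rule, 1 of them past the limit, are not reported here. Alternatives tried were pseudocounts of 0.1 and 0.5, a minimum of 1 FPKM or none, median-ratio scaling, quantile normalization, voom on recovered reads, no trend, the replicate number as a block, and each library left out.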

Additional observations from a re-analysis of the deposited data

How the results depend on the processing

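Of the members, *Gata3* alone passed the unadjusted limit in the main fit and in each of its 16 alternatives, with a log2 fold change of -1.20 to -0.50 (-0.66 to -0.50 with a library left out) and an adjusted p of 0.300 to 1. *Pax8*, *Cdh1*, *Cdh16*, *Krt8* and *Krt18* stayed short of the limit in all of theirs. The sign of *Krt8* turned in 1 and that of *Krt18* in 2 of 16, and that of *Cdh16* in 1 of 15. The number of all genes past the unadjusted limit, 761 in the main fit, was 1331 with no minimum level and 1719 with voom on all recovered reads, an alternative chosen after seeing the data, and voom on the filtered genes gave 724. With each library left out it ran from 364 to 2493, with 364 without Ctrl 2, 441 without cKO 1, 424 without cKO 3, 1176 without Ctrl 3 and 2493 without cKO 2. These fits differ in the genes or libraries they hold, and the cause of the spread was not tested. No gene passed an adjusted p of 0.05 in limma except 4 without Ctrl 1. Same-numbered libraries did not deviate together (r = -0.39, -0.03 and 0.12 over genes). These correlations also carry the differences in cell content between libraries, so they cannot show whether libraries share a litter or batch. With the replicate number as a block 681 genes passed, 1 member among them (*Gata3*, limma unadjusted p = 0.0185). With a pseudocount of 0.1 the log2 differences of the ratios *Gata3* over *Pax2*, *Pax8* over *Pax2* and *Wnt9b* over *Pax2* were -1.54, -0.85 and -1.04, and no ratio passed in any alternative. Depth limits *Pax2*, *Lhx1* and *Wnt9b*, whose differences of a few reads were not detectable across genes.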

Other observations

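*Esrp1* and *Grhl2*, picked from the 30 epithelial genes after their values were seen, shared part of the library order of *Cdh1*. *Esrp1*, an epithelial splicing regulator, was at 0.857, 2.02 and 4.39 FPKM in Ctrl 1, 2 and 3 and at 2.11, 0.917 and 1.81 FPKM in cKO 1, 2 and 3. *Grhl2*, a transcription factor that sustains epithelial junctions, had 6, 20 and 64 reads in Ctrl and 22, 6 and 24 reads in cKO. Both were highest in Ctrl 3, as was *Cdh1*, and lowest in Ctrl 1 and cKO 2, where *Cdh1* was lowest too. *Esrp1* was higher in cKO 1 than in cKO 3, the reverse of *Cdh1*. Other genes of the list differed. *Ap1m2*, *Crb3* and *Spint1* were also highest in Ctrl 3, but *Ehf*, *Cldn3* and *Cldn6* were highest in Ctrl 1, and *Cldn4* and *Cldn8* in cKO 1. These are likewise named after their values were seen. *Ret*, the receptor for GDNF in duct tips, was at 3.70, 1.72 and 2.58 FPKM in Ctrl and at 1.91, 4.54 and 4.19 FPKM in cKO, while *Gfra1*, its co-receptor, was lower in every cKO library. Of the genes of mature kidney tubules, *Umod* was read 9 times and *Slc22a6* 4 times in Ctrl 2 and in no other library, and *Slc34a1* was read 18 times in Ctrl 2, 1 time in cKO 3 and in no other library.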
